A study of Mus musculus with 2 samples.

Results

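The miR-17-92 cluster is a run of 6 microRNA hairpins in the non-coding host gene Mir17hg on mouse chromosome 14, and the Mcm7 cluster is its paralog, a run of 3 hairpins in an intron of Mcm7 on chromosome 5. Mcm7 encodes a subunit of the helicase that opens DNA for replication. The 9 hairpins (Mir17, Mir18, Mir19a, Mir20a, Mir19b-1 and Mir92-1, with Mir106b, Mir93 and Mir25) were found by their GENCODE M21 names among the 2202 miRNA genes of the deposited count tables. They were described in 2 microRNA-seq libraries of heart from adult male 5xFAD/CAST mice aged 8 to 10 months. 5xFAD mice carry transgenes that model Alzheimer's disease, driven by the neuronal Thy1 promoter, and CAST is a wild-derived inbred strain. Both libraries belong to a single group, replicates 1 and 2, with no group to set them against. Their biosample entries differ but both point to a single donor entry, and nothing says that they came from separate animals. The spread between them, and every p-value, therefore compares these libraries and may be technical.

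A microRNA hairpin is cut out of a longer primary transcript and then into a duplex, of which 1 strand is loaded into Argonaute. The loaded strand finds its mRNA targets mainly through its seed, bases 2 to 8. Hairpins of a polycistronic cluster share a primary transcript, and those of miR-17-92 are known to be induced by Myc and E2F proteins and to repress Bcl2l11 and Cdkn1a, genes that restrain growth and survival. In mice, loss of miR-17-92 impairs heart and lung development, and raising it in cardiomyocytes promotes their proliferation. In the mouse heart, miR-92a is known to limit vessel growth, miR-18 and miR-19 to repress the matrix genes Ctgf and Thbs1, and miR-25 to repress the calcium pump gene Atp2a2.

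The mature sequences show why the members fall into 4 seed families. They were taken from RefSeq (GRCm38.p6, the same assembly as mm10), are written 5′ to 3′ for the arm usually taken as the main product, and have the seed in capitals.
miR-106b-5p: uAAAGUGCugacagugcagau
miR-93-5p: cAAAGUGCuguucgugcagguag
miR-17-5p: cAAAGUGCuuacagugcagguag
miR-20a-5p: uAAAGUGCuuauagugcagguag
miR-18a-5p: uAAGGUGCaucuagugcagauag
miR-19a-3p: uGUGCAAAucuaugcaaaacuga
miR-19b-3p: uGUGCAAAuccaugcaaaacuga
miR-25-3p: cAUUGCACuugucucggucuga
miR-92a-3p: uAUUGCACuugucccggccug
The first 4 share a seed, miR-18a has its own, the miR-19 pair shares a seed, and so do miR-25 and miR-92a. Within the miR-17 seed, miR-17-5p and miR-20a-5p had 21 of 23 bases the same, and miR-106b-5p and miR-93-5p 16 of 21. miR-19a-3p and miR-19b-3p differed by a single base, U11C, counted from the 5′ end with the base of miR-19a-3p first. The counts were made per hairpin, so the arms were not told apart, and each count is assigned to a seed here through the arm shown.

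All 9 hairpins have annotated positions on mm10. On the minus strand of chromosome 5, Mir106b (ENSMUSG00000065514.1) spans 138165737 to 138165818, Mir93 (ENSMUSG00000065527.1) 138165523 to 138165610 and Mir25 (ENSMUSG00000065394.1) 138165321 to 138165404. They lie in intron 13 of a protein-coding Mcm7 transcript of 15 exons, and Mir93 and Mir25 also fall in an exon of a retained-intron transcript of Mcm7. On the plus strand of chromosome 14, Mir17 (ENSMUSG00000065508.1) spans 115043671 to 115043754, Mir18 (ENSMUSG00000065403.1) 115043851 to 115043946 and Mir19a (ENSMUSG00000065416.1) 115044000 to 115044081. Mir20a (ENSMUSG00000065442.1) follows at 115044157 to 115044263, Mir19b-1 (ENSMUSG00000076256.1) at 115044305 to 115044391 and Mir92-1 (ENSMUSG00000076062.1) at 115044427 to 115044506. All 6 lie in exon 2 of the 2 exons of Mir17hg. The Mcm7 hairpins are richer in G and C, at 55.7% to 63.1%, against 43.7% to 47.5% for the miR-17-92 hairpins. Predicted folding energies overlapped, at -46.3 to -35.9 kcal/mol for the Mcm7 hairpins and -38.7 to -29.2 kcal/mol for the miR-17-92 hairpins.

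The libraries held 3889280 and 5058613 sense counts over all miRNA genes in replicates 1 and 2, and levels are given relative to these totals (CPM). Reads aligned to several places were 42.3% and 46.8% of all reads and were given to no gene. A count of 0 allows up to 3 counts, or 0.771 CPM in replicate 1 and 0.593 CPM in replicate 2, and such limits and all intervals cover counting error only. The 7 heart muscle markers summed to 6776 and 7481 CPM, and 6 of them were detected, which here means 10 counts or more in each library. Mir208a, at 3885 and 1485 CPM, and Mir499, at 2732 and 5888 CPM, made up most of that sum and differed between the libraries in opposite directions. Among them, Mir1a and Mir133a hairpins share stretches of at least 20 bases with their copies and had 5 to 222 counts. Endothelial Mir126a (87115 and 87787 CPM) and the 2 smooth muscle markers (30137 and 41747 CPM) were also detected. Of 9 markers of pluripotent cells, 4 were detected and 4 were at 0, and they summed to 210 CPM in replicate 1 and 1032 CPM in replicate 2. In bulk libraries fewer cells of a type cannot be told apart from less RNA per cell.

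Of the 9 hairpins, 7 were detected, and they spanned from the upper tail of the heart profile to its middle. Levels and order are of the counted reads only, since reads of miR-92a-3p and miR-19b-3p that fit a second hairpin are not counted. Mir93, of the miR-17 seed, led at 2693 CPM in replicate 1, against 2245 CPM in replicate 2, a mean of 2469 ± 317 CPM (SD, n = 2), at rank 39 of all miRNA genes. Mir92-1 had 1468 and 806 CPM, a mean of 1137 ± 468 CPM at rank 57. Of all members it had the widest spread, and its value in replicate 2 fell below both values of Mir17. Mir17 had 930.0 and 851 CPM (891 ± 55.6) and Mir20a 747 and 629 CPM (688 ± 83.6), at ranks 63 and 71. Mir106b had 527 and 572 CPM (550 ± 32.5), and Mir25 had 230 and 207 CPM (218 ± 16.3). Their ranks were 78 and 100. Mir18 stood well below its neighbours in the same transcript, with 40.9 and 44.5 CPM (42.7 ± 2.54) at rank 172, just under the middle of the 325 detected genes. In the order Mir93, Mir92-1, Mir17, Mir20a, Mir106b, Mir25 and Mir18, the libraries of neighbouring hairpins did not overlap except for Mir92-1 and Mir17. A read shorter than 30 bases is about a whole mature miRNA, so counts were not divided by hairpin length. With that division Mir106b (563) stood above Mir20a (540), in CPM scaled to the median hairpin length, and the rest of the order was as given.

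**Figure D1:**
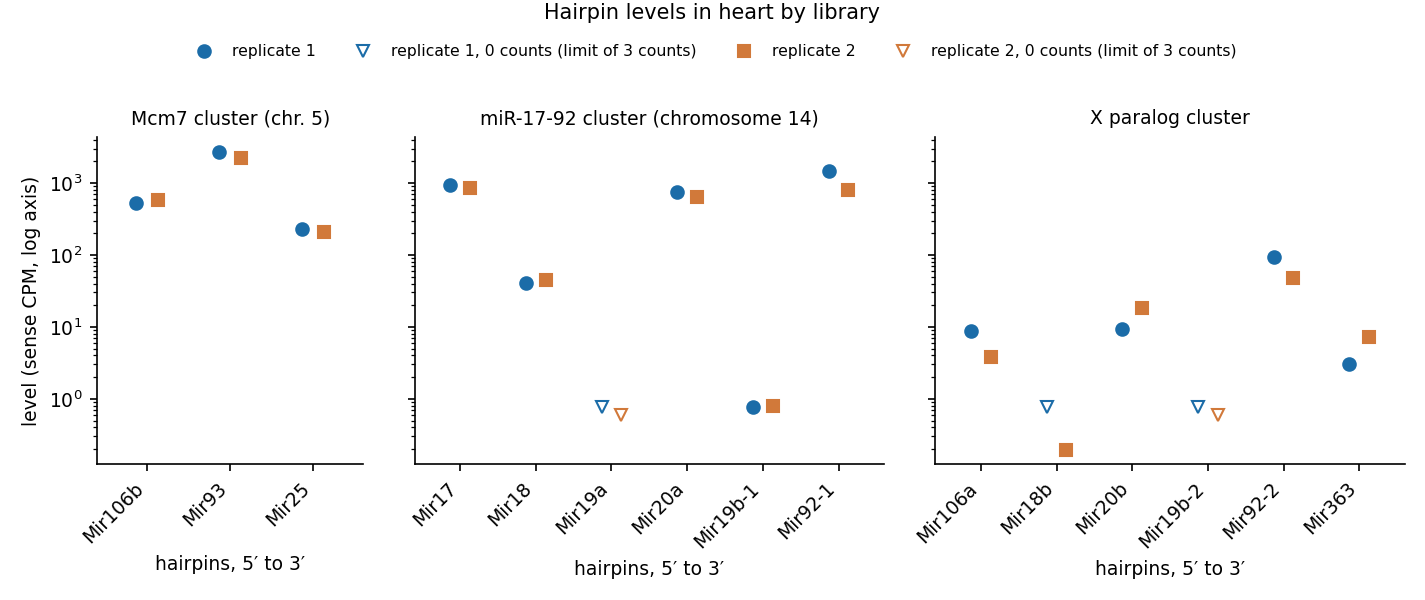
Level of each hairpin in sense CPM (log axis) in replicate 1 (circles) and replicate 2 (squares), in transcript order for the Mcm7, miR-17-92 and X chromosome paralog clusters, with open triangles at the limit that 0 counts allow. Mir93 has the highest counted level at 2693 and 2245 CPM, and Mir19a has 0 counts in both libraries between Mir18 at 40.9 and 44.5 CPM and Mir20a at 747 and 629 CPM.

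The miR-19 hairpins were nearly uncounted. Mir19a had 0 counts in both libraries. Mir19b-1 had 3 counts in replicate 1 and 4 in replicate 2, and its copy on the X chromosome, Mir19b-2, had 0 in both. Mir19a lies between Mir18, with 159 and 225 counts, and Mir20a, with 2907 and 3183 counts, in the same exon. The mature miR-19b-3p occurs without change in Mir19b-1 and Mir19b-2, which share a stretch of 25 bases, so its reads can align to both and be given to neither. miR-19a-3p occurs in no other annotated hairpin without change and is 1 mismatch away from miR-19b-3p. Likewise miR-17-5p is 1 mismatch away from miR-106a-5p of the X chromosome. Copies of these mature miRNAs outside annotated hairpins were not searched. Of all 2202 miRNA genes, 1490 had 0 counts in both libraries, as Mir19a did. How many reads of either miR-19 entered the class aligned to several places was not tested.

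Within each cluster a few hairpins held nearly all counts. Mir93 took 78.1% of the Mcm7 cluster in replicate 1 (77.4 to 78.8, a 95% Clopper-Pearson interval) and 74.2% in replicate 2 (73.5 to 74.9). Mir106b took 15.3% and 18.9%, and Mir25 took 6.66% and 6.83%. Within miR-17-92, Mir92-1 took 46.1% in replicate 1 and 34.6% in replicate 2, Mir17 took 29.2% and 36.5%, and Mir20a took 23.5% and 27.0%. Mir18 took 1.28% and 1.91%. By counted reads, Mir92-1 was thus the leading hairpin of its cluster in replicate 1 and Mir17 in replicate 2. Reads of miR-92a-3p and miR-19b-3p that fit a second hairpin are not counted. The shares, order and span within miR-17-92 are therefore of the counted reads only. The detected hairpins spanned 11.3-fold in the Mcm7 cluster and 26.6-fold in miR-17-92, where Mir19a and Mir19b-1 were not detected and are left out. Across the 11 other clusters of at least 3 detected hairpins on a strand with gaps of at most 10 kb, the median span was 70.0-fold. Those clusters hold from 3 to 18 detected hairpins, and the spans were not adjusted for that number.

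**Figure D2:**
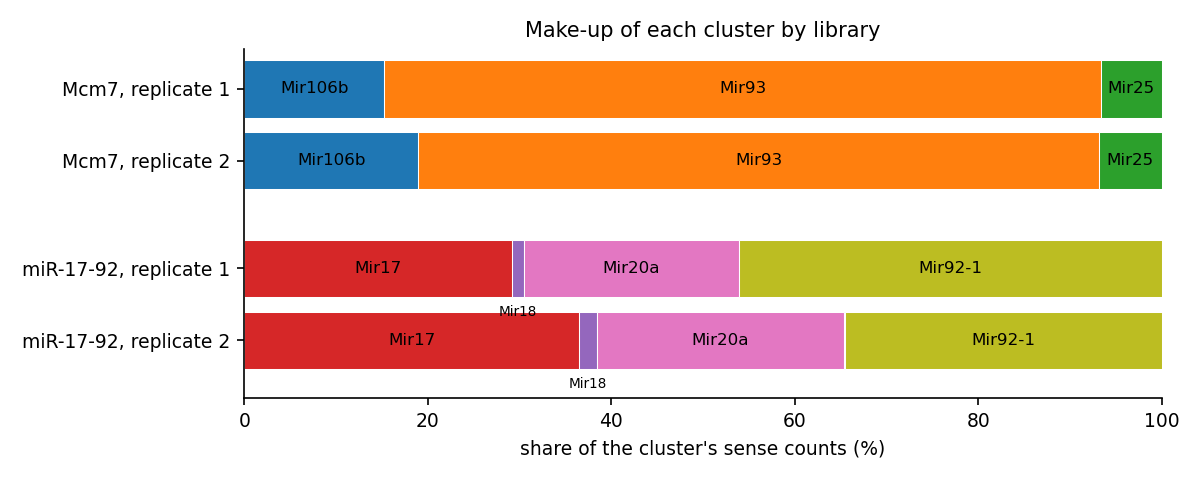
Share of each hairpin in its cluster's sense counts (%), with a bar for each cluster and library. Mir93 fills 78.1% and 74.2% of the Mcm7 cluster, while Mir92-1 fills 46.1% of miR-17-92 in replicate 1 and 34.6% in replicate 2.

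As counted, the Mcm7 cluster had the larger sum in both libraries. Reads of miR-92a-3p and miR-19b-3p that fit a second annotated hairpin are missing from the miR-17-92 sum, and the Mcm7 cluster has no such mature miRNA. Copies outside annotated hairpins were not searched. The order of the whole clusters is therefore uncertain. The 3 Mcm7 hairpins summed to 3449 CPM in replicate 1 and 3024 CPM in replicate 2 (3237 ± 301), and the 6 of miR-17-92 to 3187 and 2332 CPM (2760 ± 604). The ratio of the Mcm7 sum to the miR-17-92 sum was 1.08 in replicate 1 (1.06 to 1.11, a 95% exact interval) and 1.30 in replicate 2 (1.27 to 1.33). The ratio differed between the libraries by Fisher's exact test on the counts, two-sided (p = 4.77e-25), which covers counting error only. Without Mir92-1, a step chosen after its spread was seen, the ratio was 2.01 (1.95 to 2.07) and 1.98 (1.93 to 2.04), with intervals that overlap. Leaving out both hairpins that share a stretch of at least 20 bases with another hairpin, Mir92-1 and Mir19b-1, gave the same values to 2 decimals. With 3 and 4 counts, Mir19b-1 could hardly change them, so this is no separate check. Together the 9 hairpins held 0.664% of the total in replicate 1 (0.656 to 0.672, Clopper-Pearson) and 0.536% in replicate 2 (0.529 to 0.542).

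By seed, counts of the miR-17 family exceeded those of the miR-92 family, and the clusters contributed to them unequally. Reads of miR-92a-3p that fit both of its hairpins are missing from the miR-92 family, so its levels, shares and ratios to the miR-17 family are of the counted reads only. An exact read that fits only 1 of Mir92-1 and Mir92-2 must reach outside their longest shared stretch of 22 bases. The reads themselves were not examined, and whether the counted ones carry the miR-92 seed was not tested. The 7 annotated hairpins with the miR-17 seed summed to 4915 CPM in replicate 1 and 4320 CPM in replicate 2. Mir93 and Mir106b of the Mcm7 cluster supplied 65.5% and 65.2% of these counts. Mir17 and Mir20a supplied 34.1% and 34.3%, and Mir20b and Mir106a of the X chromosome 0.366% and 0.503%. The share from each of the 3 clusters was thus nearly the same in both libraries. A seventh hairpin with the seed, Mir6383, had 0 counts.

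The 7 hairpins with the miR-92 seed summed to 1870 and 1135 CPM. Here Mir92-1 supplied 78.5% and 71.0%, Mir25 of the Mcm7 cluster 12.3% and 18.2%, and Mir92-2 and Mir363 of the X chromosome 5.21% and 4.88% together. Mir32 (46.9 ± 7.87 CPM) and Mir92b (24.3 ± 1.99 CPM), which lie outside these clusters, supplied the rest, and Mir367 had 0 counts. Among the 9 members, counts with the miR-17 seed exceeded those with the miR-92 seed by 2.88 to 1 in replicate 1 (2.81 to 2.97) and by 4.24 to 1 in replicate 2 (4.12 to 4.38). With counts assigned to seeds by the main arm, the Mcm7 cluster thus supplied most for the miR-17 seed in both libraries. miR-17-92 supplied most of those assigned to the miR-92 seed. The miR-18 seed had 40.9 and 44.7 CPM, of which 1 count in replicate 2 was from Mir18b.

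**Figure D3:**
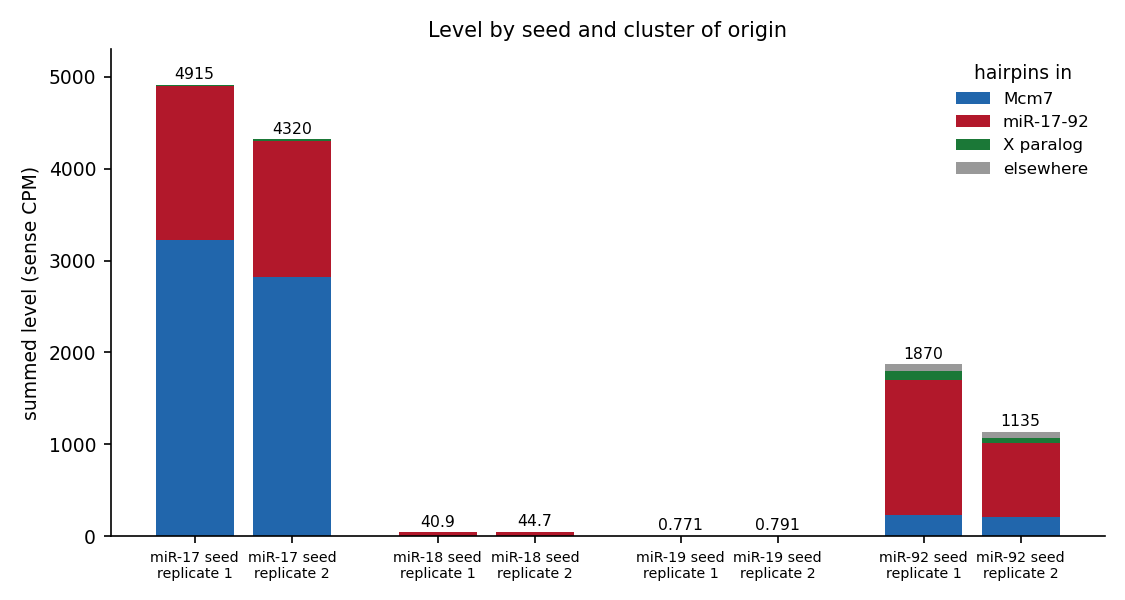
Summed level in sense CPM of all annotated hairpins with the seed of miR-17, miR-18, miR-19 or miR-92, for each library, stacked by the cluster that holds the hairpins. The miR-17 seed reaches 4915 and 4320 CPM, mostly from the Mcm7 cluster, and the miR-92 seed 1870 and 1135 CPM, mostly from miR-17-92.

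Between the libraries, Mir92-1 stood apart and the other members differed little. Differences are TMM-scaled log2 ratios with replicate 1 on top and 1 CPM added to each value, tested by a two-sided exact binomial test of counts with Benjamini-Hochberg adjustment over all 412 genes with at least 10 counts in sum. Mir92-1 had 5709 counts in replicate 1 and 4079 in replicate 2 and was 1.67-fold higher in replicate 1 (log2 ratio 0.74, interval 0.69 to 0.80, exact binomial adjusted p = 1.03e-140). Mir93 was 1.10-fold higher in replicate 1, with 10475 and 11358 counts (adjusted p = 2.32e-12, exact binomial). Mir20a was 1.09-fold higher there, with an adjusted p of 0.00164 by the exact binomial test. Mir106b went the other way, 1.18-fold higher in replicate 2, with 2048 and 2896 counts (adjusted p = 2.48e-08, exact binomial).

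The other 3 tested members did not pass. Mir17 had 3617 counts in replicate 1 and 4307 in replicate 2, with a log2 ratio of 0.0063 (interval -0.058 to 0.070) and an adjusted p of 0.919 by the exact binomial test. Mir25 had 893 and 1045 counts and a log2 ratio of 0.031 (-0.099 to 0.16). Mir18 had a log2 ratio of -0.24 (-0.54 to 0.057). Mir19a and Mir19b-1 had too few counts to be tested.

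In all, 4 of 7 tested members were called, 3 higher in replicate 1 and 1 in replicate 2, against 45.4% of all tested genes, 22.8% in the direction of replicate 1 and 22.6% in that of replicate 2. Genes with many counts were called more often. Among members whose counts averaged 500 or more, 4 of 6 were called, against 88.1% of the 126 genes of that class. The tested members had a median absolute log2 ratio of 0.14, against 0.39 over all tested genes and 0.34 over the class of many counts. Their median log2 ratio was 0.031, against 0.0077 over all tested genes. The exact binomial test covers counting error alone. edgeR's exact test was also run at the common dispersion of all genes, a coefficient of variation of 0.357. By this test 0 members were called and 0 had an unadjusted p below 0.05, against 0.728% of genes called. That dispersion was estimated from these same 2 libraries taken as 1 group. Their difference thus sets the spread it is tested against, so few calls were bound to follow. Mir92-1 had an adjusted p of 1 by edgeR's exact test.

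**Figure D4:**
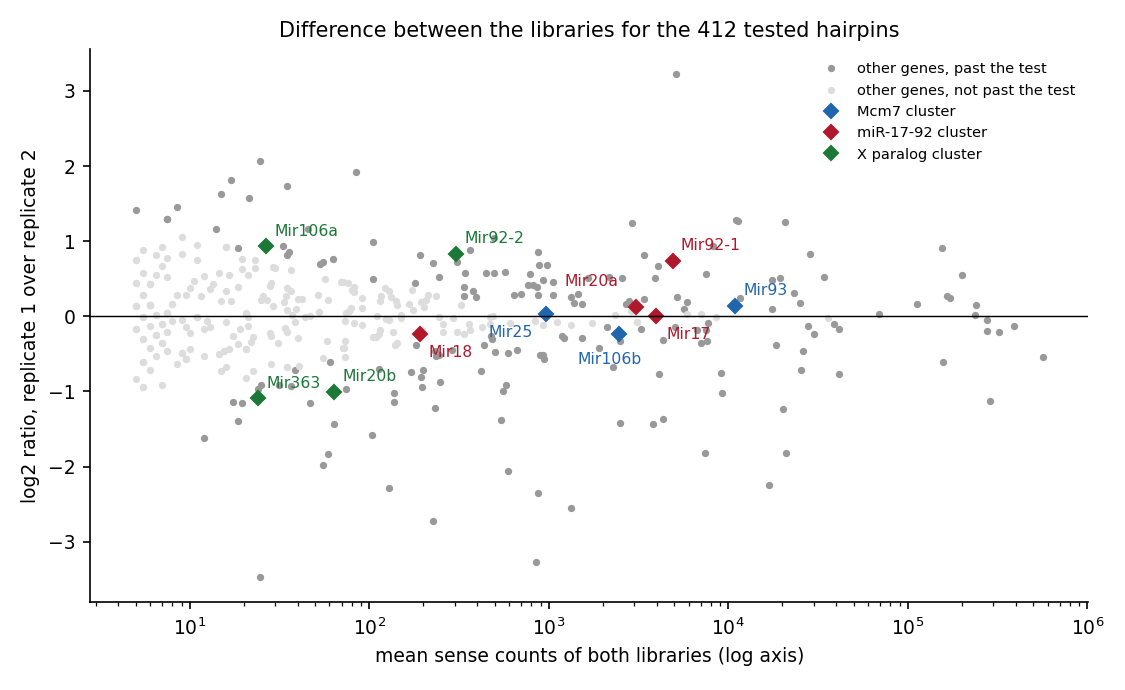
Log2 ratio of replicate 1 over replicate 2 against the mean sense counts of both libraries (log axis) for the 412 tested hairpins. Mir92-1 at 0.74 and its X chromosome copy Mir92-2 at 0.83 lie above 0, and the other members of the Mcm7 and miR-17-92 clusters lie from -0.24 to 0.14.

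Mir92-1 and Mir92-2 carry the same mature miR-92a-3p on different chromosomes, and their difference between the libraries was alike. Mir92-2 (ENSMUSG00000065613.1, chromosome X, 52741838 to 52741928, minus strand) had 367 counts in replicate 1 and 244 in replicate 2. It was 1.78-fold higher in replicate 1 (log2 ratio 0.83, interval 0.61 to 1.09, exact binomial adjusted p = 3.01e-12). The ratio of Mir92-1 to Mir92-2 counts was 15.6 in replicate 1 and 16.7 in replicate 2 (14.7 to 19.1), with intervals that overlap. The hairpins are shown with their longest shared stretch, 22 bases that hold the whole mature miR-92a-3p, in capitals.
Mir92-1: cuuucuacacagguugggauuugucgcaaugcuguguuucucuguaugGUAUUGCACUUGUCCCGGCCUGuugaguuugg
Mir92-2: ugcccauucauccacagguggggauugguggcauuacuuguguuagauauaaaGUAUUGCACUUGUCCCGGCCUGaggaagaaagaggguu
A read of miR-92a-3p that ends within the capitals aligns to both hairpins, and a read that runs past them does not, so the levels of both hairpins are uncertain. The mature miR-25-3p, with the same seed and 18 of 21 bases the same, occurs in no other annotated hairpin. The ratio of Mir92-1 to Mir25 was 6.39 in replicate 1 (5.96 to 6.87) and 3.90 in replicate 2 (3.65 to 4.18). Blood markers moved in both directions. The 3 markers listed as erythroid summed to 1654 CPM in replicate 1 and 1243 CPM in replicate 2. Most of that sum was Mir486, at 1334 and 1026 CPM, which is also a muscle miRNA. Mir486 and Mir451a (288 and 165 CPM) were called higher in replicate 1, and Mir144 (32.1 and 52.4 CPM) higher in replicate 2. The 5 leukocyte markers summed to 8382 and 6797 CPM, but did not move together. Mir155, at 4873 and 3211 CPM, was called higher in replicate 1 and Mir146, at 1552 and 1797 CPM, higher in replicate 2, while Mir150, Mir223 and Mir142 were not called. Their part in the Mir92-1 difference was not tested.

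Of the listed ratios of hairpins that share a transcript, Mir92-1 over Mir17 differed most between the libraries. Overlap of 2 intervals does not show that the ratios are equal, and Mir20a was called between the libraries while Mir17 was not. Mir17 over Mir20a was 1.24 in replicate 1 (1.18 to 1.31) and 1.35 in replicate 2 (1.29 to 1.42), with intervals that overlap, and Mir17 over Mir18 was 22.7 and 19.1, again with intervals that overlap. Mir92-1 over Mir17 was 1.58 (1.51 to 1.65) in replicate 1 and 0.947 (0.907 to 0.989) in replicate 2, with intervals that do not overlap. In the Mcm7 cluster, Mir93 over Mir25 was 11.7 and 10.9, with intervals that overlap, and Mir93 over Mir106b was 5.11 (4.88 to 5.37) and 3.92 (3.76 to 4.09), with intervals that do not.

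**Figure D5:**
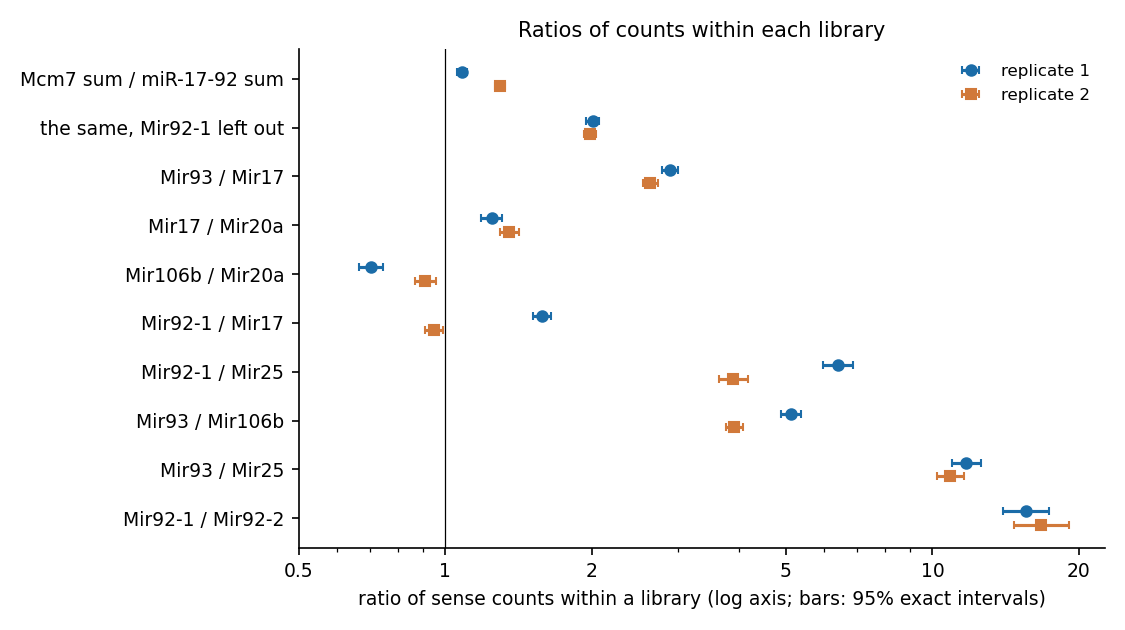
Ratios of sense counts within replicate 1 (circles) and replicate 2 (squares) on a log axis, with bars for 95% exact intervals that cover counting error only. Without Mir92-1 the ratio of the Mcm7 sum to the miR-17-92 sum is 2.01 and 1.98, while Mir92-1 over Mir17 is 1.58 and 0.947.

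As counted, the X chromosome paralog, Mir106a to Mir363, was far below both clusters. Its 6 hairpins summed to 115 CPM in replicate 1 and 77.3 CPM in replicate 2, and miR-17-92 exceeded that sum 27.6-fold (25.1 to 30.4) and 30.2-fold (27.3 to 33.5). Reads of miR-92a-3p and miR-19b-3p that fit a hairpin of each of these clusters are missing from both sums. Mir92-2 supplied 81.7% and 62.4% of that sum. The others had few counts. Mir20b had 36 and 91, Mir106a 34 and 19, Mir363 12 and 36, Mir18b 0 and 1, and Mir19b-2 0 in both. All 4 tested paralogs were called, Mir92-2 and Mir106a higher in replicate 1 and Mir20b and Mir363 higher in replicate 2, against 45.4% of all tested genes (22.8% and 22.6% by direction), again with 0 paralogs called at the common dispersion. Their log2 ratios ran from -1.09 for Mir363 to 0.93 for Mir106a, a span of 2.02 on the log2 scale, against 0.38 in the Mcm7 cluster and 0.98 in miR-17-92.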

How the data were processed

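Per the labels and the description files deposited with the tables, microRNA-seq reads of total RNA (size range below 30) were counted by the authors per GENCODE M21 miRNA gene on mm10. For the aligner and read filters, no name is given in the sources used here. The deposited values are raw counts in 3 columns, judged from their sums to be strand ignored, sense and opposite strand. Sense counts were used, and the 4 summary lines, 64.1% and 64.4% of reads, stayed out of totals and tests. The opposite strand held 0 counts of the 9 members.

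CPM used sense totals. Calls used a two-sided exact binomial test (scipy 1.17.1) at TMM effective sizes (edgeR 4.0.16), adjusted over 412 genes at 0.05. A single group leaves no quasi-likelihood contrast. The test was checked on simulated Poisson counts, which hold counting error only, so that check does not cover other spread between libraries. Size factors of DESeq2 1.42.0 were an alternative. Hairpins were folded with RNAfold 2.7.2. All 15 hairpin sequences of the 3 clusters equalled RefSeq's. Named genes were the members, their X chromosome paralogs, hairpins of the same seeds, and the hairpins nearest in level. The members and lists were chosen with earlier results of these data known.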

Additional observations from a re-analysis of the deposited data

How the results depend on the processing

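No paired analysis was possible because both libraries belong to a single group. The count of called members was 4 with TMM, DESeq2 size factors, no low-count filter and a sum of at least 50 counts, against 187, 190, 182 and 175 genes called in all. It was 6 with total sense counts, against 199 genes, and 3 in the column that ignores strand, against 174 genes. By edgeR's exact test with common dispersion it was 0, against 3 genes. The dispersion of that test came from the same 2 libraries, so few calls were bound to follow. Total counts shifted the median log2 ratio of detected genes by 0.12 and moved the share of calls higher in replicate 1 to 60.3%, against 50.3% with TMM. Relative to that shift Mir17 (0.13) and Mir25 (0.15) stood near the median, though both were then called. The sign of Mir17 reversed with DESeq2 size factors (-0.0032) and in the column that ignores strand (-0.042), and that of Mir25 reversed there too (-0.017), with no call in any of these. Mir20a lost its call in that column. The median level of the 9 members was 550 CPM, ran from 527 to 572 CPM over single libraries, and was 720.4 CPM in the column that ignores strand, where fewer counts form the total, and 196 when scaled to all reads. Leaving out hairpins that share a stretch moved the miR-17-92 sum to 1622 CPM and the cluster ratio to 2.00, against 1.19, and leaving out Mir92-1 alone, chosen after seeing the data, gave 1.99. The Mcm7 cluster holds no such hairpin. Reads aligned to several places limit the levels of Mir92-1 and Mir19b-1, and low counts those of Mir18 and the X chromosome hairpins.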

Other observations

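By the pair of levels in the libraries, as distance in log2(CPM + 1), the detected hairpins nearest Mir93 were Mir221 (2986 CPM in replicate 1 and 2317 CPM in replicate 2), Mir130a (1986 and 1836 CPM) and Mir28a (1748 and 1714 CPM). Those nearest Mir92-1 were Mir486 (1334 and 1026 CPM), Mir497 (1187 and 687 CPM) and Mir15a (1089 and 701 CPM). A likeness over 2 libraries is a likeness of level and of a single ratio.

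Among the 13 clusters of at least 3 detected hairpins, the Mcm7 cluster ranked 12 by the span of its log2 ratios between the libraries and miR-17-92 ranked 6, counted from the widest, while the X chromosome paralog ranked 1. That widest span lies between Mir363, with 12 and 36 counts, and Mir106a, with 34 and 19. The ranks take no account of counting error. The X chromosome paralog also had the lowest summed level of the 13 as counted, at 96.3 CPM. By summed level the Mcm7 cluster ranked 6, at 3237 CPM, and miR-17-92 ranked 7, at 2759 CPM over its 4 detected hairpins.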
